A study of Mus musculus with 20 samples.

Results

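The genes described here encode the enzymes that add N6-methyladenosine (m6A) to RNA, the writers, and those that remove it, the erasers. They were chosen by name: 10 of the 21780 genes of the liver count table carry the GENCODE M21 symbols Mettl3, Mettl14, Mettl16, Wtap, Virma, Rbm15, Rbm15b, Zc3h13, Fto and Alkbh5, and all 10 passed the filter on low counts. Liver RNA was sequenced from 20 male C57BL/6J mice, 5 in each of 4 groups, and all 20 were fed a high-fat diet (HFD, 42% of calories from fat) from 8 weeks of age. At 10 weeks of age each mouse received 1 oral gavage: corn oil (HFD control), 20 mg/kg of Aroclor 1260, a commercial mixture of mostly non-dioxin-like polychlorinated biphenyls (HFD + Aroclor), 20 µg/kg of PCB 126, a dioxin-like congener (HFD + PCB 126), or both at these doses (HFD + Aroclor + PCB 126, the combined exposure). The labels give 12 weeks of exposure and the methods 10 weeks after the gavage, and the mice were fasted for about 6 h before harvest. No mouse on a control diet was among the libraries, so each difference below is between exposures in mice on HFD.

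The m6A mark is the most common internal modification of messenger RNA. METTL3 is the catalytic subunit of the nuclear writer complex and METTL14 its RNA-binding partner, while WTAP, VIRMA, RBM15 or RBM15B and ZC3H13 hold the complex together and place it on its targets. METTL16 is a separate enzyme that methylates the U6 small nuclear RNA and hairpins of the Mat2a transcript, and FTO and ALKBH5 are demethylases. In liver the pathway is known for its part in lipid metabolism and in the circadian control of transcripts.

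PCB 126 is a ligand of the aryl hydrocarbon receptor (AHR), whose core binding motif is GCGTG, so the promoter stretches of the members that hold these letters are shown. RefSeq promoter windows of GRCm38.p6, from 250 bases before to 50 bases after a transcript start, were given for 8 of the 10 members, all but Mettl14 and Virma. GCGTG was found on either strand in a window of Mettl3, Wtap, Rbm15b, Zc3h13 and Alkbh5, and not in the windows of Mettl16, Rbm15 and Fto. Counted by window, 7 of the 11 windows of the members held it, beside 32.6% of 32544 over all promoter windows. Windows of Wtap and of Zc3h13 overlap and repeat the same stretches, and window 2 of Wtap held none. The stretches are written 5′ to 3′ on the strand that reads the motif, with the motif in capitals:

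Mettl3, chr14:52305298-52305326 (plus strand): gggtgggtgtatGCGTGgagagatggatg

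Wtap, chr17:12992643-12992671 (plus strand): gagccgacaagcGCGTGattggctcttcc

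Rbm15b, chr9:106887269-106887297 (plus strand): tttggcgccgccGCGTGgctgccggagcc

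Zc3h13, chr14:75284175-75284203 (minus strand): gacacggagtcaGCGTGggaggacggaga

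Zc3h13, chr14:75284257-75284285 (plus strand): ggacgcgaggggGCGTGgtctgagagggg

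Alkbh5, chr11:60537609-60537637 (plus strand): tgtttgcccaacGCGTGgccggcagtcca

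A match of letters is a description of the window and no measurement of binding, and AHR binding was not measured here. The motif holds a CpG, and the first windows of these members ranged from 52.0% (Mettl3) to 75.3% (Rbm15b) GC, against a median of 53.0% over all windows.

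The total count per library was 21836506 to 36854887 in control and 31265022 to 35611837 with Aroclor. It was 24212471 to 33131408 with PCB 126 and 23471120 to 29366462 with both, so all Aroclor libraries were deeper than all combined ones. The members had 167 to 3116 counts per library. Levels are given as CPM, the counts of a gene per 1000000 counts of its library after TMM scaling. In whole liver, fewer cells of a type and less RNA per cell cannot be told apart. The summed level of 6 hepatocyte markers was 84490 to 119500 CPM in every library and those of the lymphocyte and adipocyte markers stayed under 20 CPM. With the combined exposure, where 32.8% of all genes passed the test used below, 3 of 6 hepatocyte markers fell, 1 of 5 Kupffer cell markers rose, 3 of 5 stellate cell markers rose and 1 fell, and 1 of 5 endothelial markers fell. After the GC correction described below 1 hepatocyte marker still passed, as lower, and 0 of the Kupffer, stellate and endothelial markers did. The stellate sum was 189 to 362 CPM in control and 332 to 402 CPM with the combined exposure, and the part of cell makeup in the results below was not tested. The AHR target Cyp1a1 was 0.219 to 0.941 CPM in control, 4.09 to 314 CPM with PCB 126 and 0.792 to 2.62 CPM with the combined exposure, and Cyp1a2 was 249 to 517 CPM, 1120 to 2601 CPM and 537 to 993 CPM in the same groups. Cyp1a1 and Cyp1a2 were thus lower in every mouse of the combined group than in every mouse given PCB 126 alone, although the stated PCB 126 dose was the same. The exposure markers Tiparp and Ahrr did not follow, and their means were higher with the combined exposure. Tiparp was 4.503 to 14.95 CPM with PCB 126 and 7.767 to 20 CPM with both. Ahrr was 0.1759 to 0.4473 CPM and 0.04259 to 0.7999 CPM in these groups, so the ranges overlapped. The 7 exposure markers were Cyp1a1, Cyp1a2, Tiparp, Ahrr, Cyp2b10, Cyp2c55 and Cyp3a11. Of these, 2 were called lower and 1 higher against PCB 126 alone, where 16.7% of all genes were called. After the GC correction described below 0 of the 7 were called, as were 0% of all genes. The dose that the combined mice took up was not measured here, so the combined and interaction values below are those of mice labelled with both exposures, and the part of a lower effective dose was not tested.

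All 10 members were expressed in control liver, with Alkbh5 above the rest. On the scale of CPM per kilobase of exon (union of annotated exons), the eraser Alkbh5 was highest at 11.6 ± 2.43 (SD, n = 5) and the METTL3 partner Mettl14 lowest at 0.993 ± 0.116. Between them the control means, in descending order, were 3.80 ± 0.336 for Zc3h13, 3.59 ± 0.255 for Wtap, 2.97 ± 0.136 for Fto, 2.85 ± 0.385 for Virma, 2.80 ± 0.512 for Mettl3, 2.18 ± 0.405 for Rbm15b, 1.58 ± 0.288 for Rbm15 and 1.41 ± 0.188 for Mettl16. The ranges of neighbours in this order overlapped except between Alkbh5 and Zc3h13, between Wtap and Fto, and between Mettl16 and Mettl14. The middle of the order depended on the length used. With the longest annotated transcript, Fto moved from the fourth to the second place at 8.22 CPM per kilobase, Mettl3 to the fourth at 6.59 and Zc3h13 to the fifth at 3.88, while Alkbh5 stayed first and Mettl14 last.

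**Figure D1:**
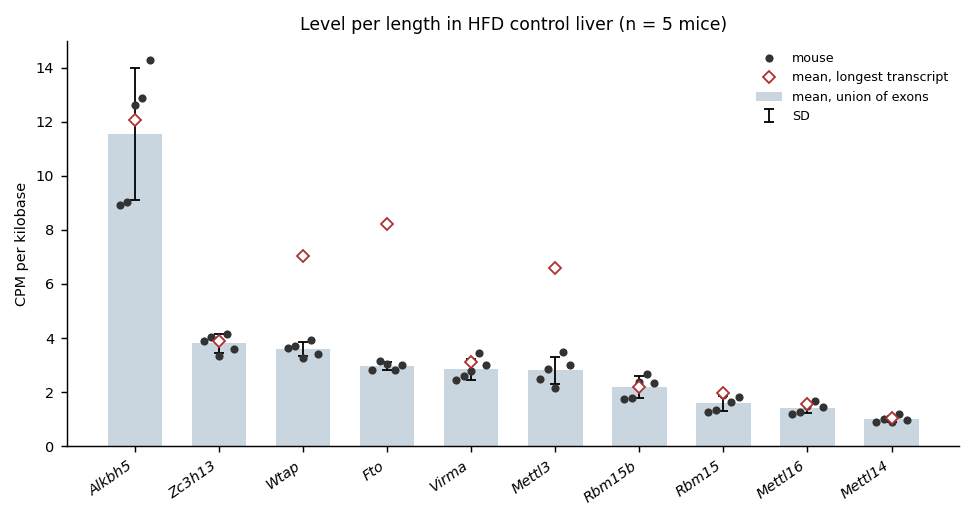
Level of the 10 members per kilobase in the 5 HFD control livers (y axis, CPM per kilobase; bars, means over the union of exons; whiskers, SD; dots, mice; open diamonds, means over the longest transcript). Alkbh5 stands above the others at 11.6 and Mettl14 is lowest at 0.993, while Wtap, Fto and Mettl3 change most with the choice of length.

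In the genome (GRCm38), Mettl3 (ENSMUSG00000022160) lies at chr14:52294841-52305128 and Mettl14 (ENSMUSG00000028114) at chr3:123368297-123386108, both on the minus strand. Mettl16 (ENSMUSG00000010554) lies at chr11:74770830-74828525 on the plus strand. Of the complex's other subunits, Wtap (ENSMUSG00000060475) is at chr17:12966796-12994169, Rbm15 (ENSMUSG00000048109) at chr3:107325421-107333673 and Rbm15b (ENSMUSG00000074102) at chr9:106880918-106887428, all on the minus strand, with Virma (ENSMUSG00000040720) at chr4:11485958-11550684 and Zc3h13 (ENSMUSG00000022000) at chr14:75284373-75344426 on the plus strand. Both erasers are on the plus strand, Fto (ENSMUSG00000055932) at chr8:91313525-91668439 and Alkbh5 (ENSMUSG00000042650) at chr11:60536381-60558512. The values are sums over the exons of each gene. The exons of Mettl3 share 933 bases with Tox4 on the opposite strand, and those of Rbm15b share 89 bases with Manf and Dcaf1. Whether reads were counted by strand, and how reads in shared exons were treated, is not given in the sources used here. The values of Mettl3 and Rbm15b may therefore hold reads of these neighbours or lack reads of their own, and are uncertain.

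Aroclor alone was compared with HFD control to ask whether the non-dioxin-like mixture moved the machinery. None of the 10 members passed an adjusted p of 0.05 (edgeR quasi-likelihood test, Benjamini-Hochberg adjustment over 15522 genes), where 0% of all genes passed. At an unadjusted p under 0.05 there were 1 member and 2677 genes, and DESeq2 called 0 members and 135 genes. That member was Virma, the scaffold of the complex, with 28.6, 22.2, 21.1, 24.9 and 23.3 CPM in HFD + Aroclor against 17.4, 18.6, 19.8, 24.5 and 21.4 CPM in control. The groups overlapped, and the log2 fold change (log2FC) was 0.24 (95% interval 0.013 to 0.47, adjusted p = 0.272). The log2FC of the other members ran from -0.19 for Mettl3 (interval -0.43 to 0.060) to 0.17 for Alkbh5 (interval -0.10 to 0.44). The median over the members was 0.024, beside -0.014 over all tested genes. The interval bounds farthest from 0 lay between 0.21 (Mettl16) and 0.47 (Virma).

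PCB 126 alone tested the dioxin-like congener. No member passed the threshold with PCB 126 either, and 0.116% of all genes did (18 genes). By an unadjusted p under 0.05 there were 1 member and 2280 genes, and DESeq2 called 0 members and 320 genes. Rbm15b, which brings the writer complex to its RNA targets as Rbm15 does, had 11.7, 12.0, 11.7, 11.2 and 11.6 CPM with PCB 126 against 11.4, 11.5, 15.4, 17.5 and 15.2 CPM in control. The exposed mice were tightly grouped, while control replicates 1 and 2 lay among them and the other 3 control mice above. The log2FC was -0.28 (interval -0.52 to -0.049, adjusted p = 0.262). With GC correction it was -0.16 (adjusted p = 0.631). Leaving out control replicates 1 and 2, a choice made after seeing the data, removes the 2 lowest control values of Rbm15b and so lowers its log2FC by construction. It then was -0.47 (adjusted p = 0.0249), or -0.38 with GC correction as well (adjusted p = 0.0756), and over all alternatives the adjusted p ran from 0.0249 to 0.666. With PCB 126 the log2FC was -0.15 for Mettl3, -0.28 for Rbm15b, 0.0064 for Zc3h13, 0.068 for Alkbh5 and 0.075 for Wtap. These members hold GCGTG in a promoter window, and none passed. Apart from that of Rbm15b, their intervals held 0, and whether AHR acts on them was not tested. Mettl16 was at 0.13, Fto at 0.059 and Rbm15 at -0.042, without GCGTG in their windows. Virma was at 0.18 and Mettl14 at 0.13, and no window was given for them. The members' median was 0.063, beside -0.019 over all genes.

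**Figure D2:**
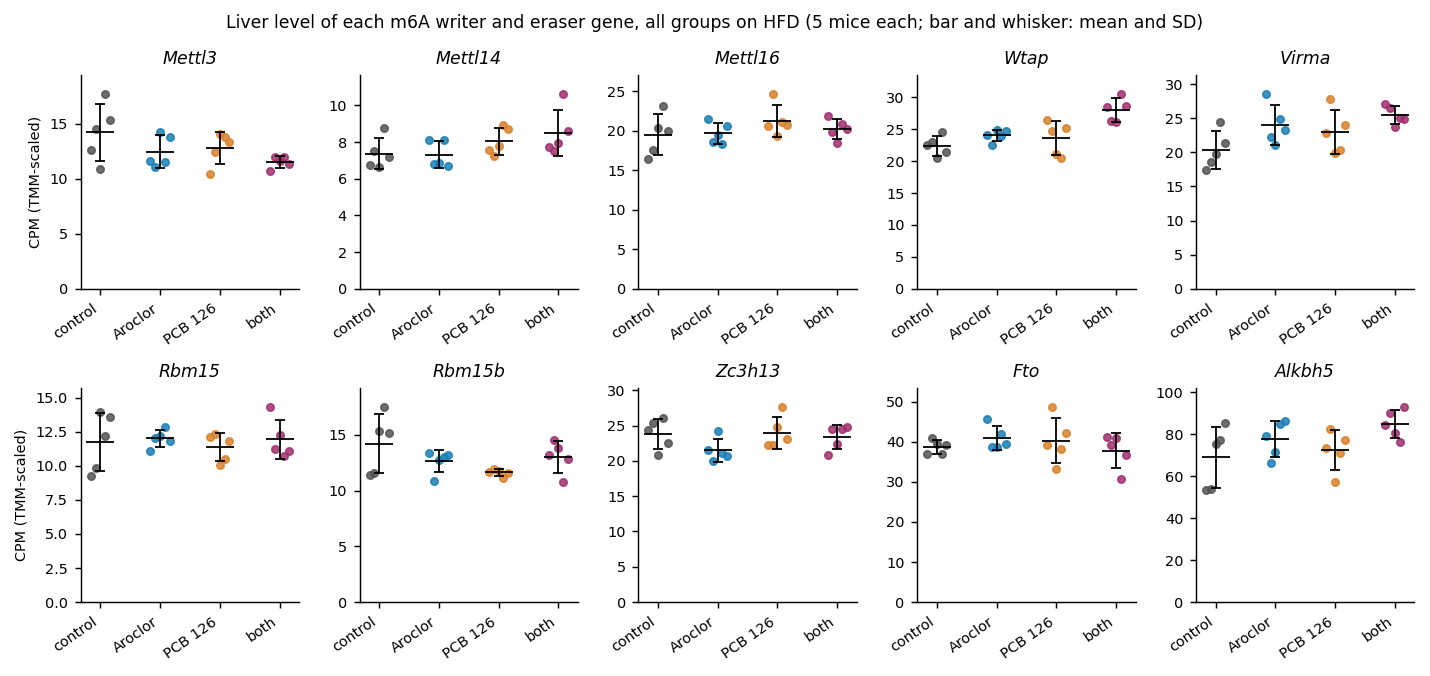
Level of each member in each of the 20 livers (y axis from 0, TMM-scaled CPM; x axis, exposure group on HFD; dots, mice; line and whisker, mean and SD, n = 5). Wtap with both exposures (26.1 to 30.5 CPM) lies above all control mice (20.5 to 24.6 CPM), while the groups of the other members overlap.

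Against HFD control the combined exposure had the most genes past the threshold, 32.8% of all (4.3% with GC correction). Without the correction 2 of the 10 members were among them. Both were subunits that hold the writer complex together, and both were higher, Wtap by 1.25-fold and Virma by 1.25-fold, but neither passed after the GC correction described below, where the sign of Wtap turned. Of all genes, 15.8% were called higher. The catalytic pair, the separate enzyme METTL16, the other adaptors and both erasers did not pass. DESeq2 called 3 members, the same 2 and Mettl3, and 5620 genes. The 10 members ran from a log2FC of -0.30 to 0.33 with a median of 0.040, beside -0.00093 over all genes, and 2 of 10 is no larger a share of calls than that of the whole table.

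Wtap, which anchors METTL3 and METTL14 in nuclear speckles, had 22.6, 23.1, 20.5, 24.6 and 21.4 CPM in control. With the combined exposure it had 28.5, 26.3, 26.1, 30.5 and 28.6 CPM, and the lowest exposed mouse was above the highest control mouse. It was the 1 member whose groups did not overlap, as 18.8% of all genes did not. The log2FC was 0.32 (SE 0.084, interval 0.14 to 0.50, adjusted p = 0.00695), and Wtap stayed past the threshold with each of the 10 mice left out in turn.

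Virma had 27.1, 26.6, 23.8, 25.01 and 24.9 CPM with both exposures, against 17.4 to 24.5 CPM in control, so that control replicate 4 lay inside the exposed range. The log2FC was 0.33 (SE 0.11, interval 0.098 to 0.56, adjusted p = 0.0273). This call was lost in 6 of the 10 fits that left out a mouse, those without control replicate 1, 2 or 3 or combined replicate 1, 2 or 4 (adjusted p up to 0.0801). Without control replicates 1 and 2, which hold its 2 lowest control values, the log2FC was 0.21 (adjusted p = 0.214).

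The remaining adaptors gave small values. Rbm15 was 11.9 ± 1.43 CPM with both exposures and 11.8 ± 2.14 CPM in control, a log2FC of 0.025 (interval -0.22 to 0.27). For Zc3h13, which keeps the complex in the nucleus, the means were 23.4 ± 1.69 and 23.9 ± 2.11 CPM (log2FC -0.027, interval -0.21 to 0.16). Rbm15b was 13.04 ± 1.43 against 14.2 ± 2.64 CPM (log2FC -0.12, interval -0.36 to 0.12), and its sign depended on the processing. GC correction gave 0.28 (adjusted p = 0.215), leaving out control replicates 1 and 2, its 2 lowest control values, gave -0.31 (adjusted p = 0.0386), and both together gave 0.058 (adjusted p = 0.81).

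The catalytic subunit Mettl3 had 10.7, 12.0, 11.7, 12.0 and 11.4 CPM with both exposures, against 12.6, 14.5, 10.9, 17.7 and 15.3 CPM in control. The exposed mice were close together and at the low end of the control range, with 4 of the 5 control mice above all of them. The log2FC was -0.30 (SE 0.12, interval -0.55 to -0.051), and the adjusted p of 0.0590 missed the threshold. Over 14 alternatives the log2FC stayed negative, from -0.41 to -0.21, and the adjusted p ran from 0.0353 (DESeq2) to 0.803, with 2 of the 14 past the threshold. Its partner Mettl14 was 8.48 ± 1.26 against 7.37 ± 0.860 CPM (log2FC 0.21, interval -0.032 to 0.44, adjusted p = 0.178). For Mettl16 the levels were 20.3 ± 1.27 and 19.5 ± 2.596 CPM (log2FC 0.055, interval -0.14 to 0.25). The adjusted p of Mettl14, Mettl16, Rbm15, Zc3h13 and Fto was 0.088 to 0.991 over the 14 alternatives.

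Of the erasers, Alkbh5 had 84.6, 90.4, 80.7, 76.5 and 92.9 CPM with both exposures against 53.4, 54.1, 75.6, 77.1 and 85.5 CPM in control. Control replicates 1 and 2 lay far below every exposed mouse and the other 3 within or just under the exposed range. The log2FC was 0.30 (interval 0.030 to 0.57, adjusted p = 0.0821), the adjusted p ranged from 0.0381 to 0.844 over the alternatives, and without those 2 control mice, its lowest, the log2FC was 0.088. Fto was 37.8 ± 4.36 against 38.7 ± 1.78 CPM (log2FC -0.035, interval -0.24 to 0.17). Its highest level was in PCB 126 replicate 2 at 48.6 CPM and its lowest in combined replicate 4 at 30.7 CPM, with no group apart from the others.

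**Figure D3:**
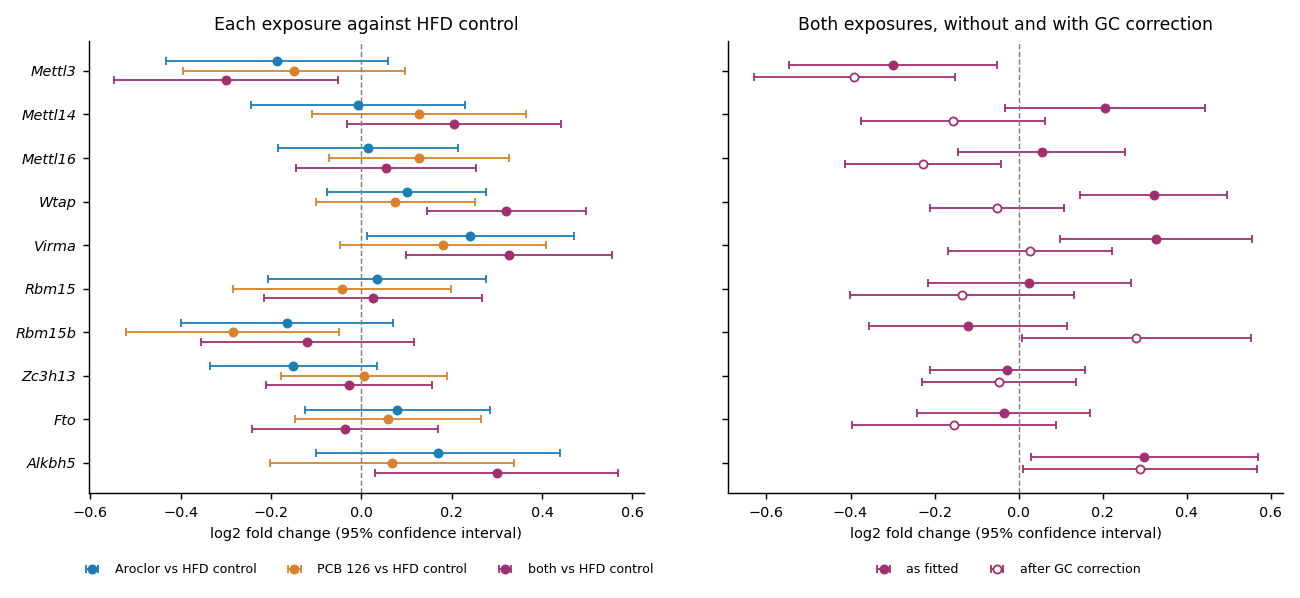
Left, log2 fold change of each member against HFD control for each exposure; right, the combined exposure before (filled) and after (open) GC correction, with 95% confidence intervals from the edgeR fit. Wtap and Virma with both exposures have intervals above 0 before the correction (0.32 and 0.33) and around 0 after it (-0.052 and 0.027), while Mettl3 lies below 0 in both (-0.30 and -0.39).

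The combined group differed from control along the GC content of the transcripts. For each library, the slope of the genes' log2 deviation from their mean over all libraries was taken per 10 percentage points of transcript GC. It was 0.234 ± 0.131 in control, -0.00075 ± 0.0736 with Aroclor, 0.103 ± 0.189 with PCB 126 and -0.337 ± 0.163 with both (SD, n = 5). The combined group was lower by 0.571 than control (two-sided exact permutation test, p = 0.00794, the smallest that 252 splits allow), Aroclor by 0.235 (p = 0.0159), and the difference of -0.131 with PCB 126 was within the spread between mice (p = 0.222). Control replicates 1 and 2 had the steepest slopes of their group, 0.423 and 0.302, and its highest total counts, 36854887 and 33848114. They are the 2 control mice with the lowest levels of Alkbh5, Rbm15, Rbm15b, Mettl16 and Virma.

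The members spread over this trend. Wtap (43.4% GC), Mettl14 (43.7%) and Virma (44.8%) fall in the bin of 40 to 45% GC, where the 2237 genes of at least 1 CPM had a median log2FC of 0.42 with the combined exposure and 55.1% were called higher. Their own values of 0.32, 0.21 and 0.33 were below that median. Mettl16 (45.3%), Rbm15 (47.9%), Fto (48.6%) and Mettl3 (48.9%) fall between 45 and 50%, where the median was 0.17, and all 4 were below it. Zc3h13 (50.3%) and Alkbh5 (50.4%) sit in the next bin, with a median of -0.18, and Rbm15b (56.4%) in that of 55 to 60%, with a median of -0.54 and 60.8% of genes called lower. These 3 were above the median of their bin.

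**Figure D4:**
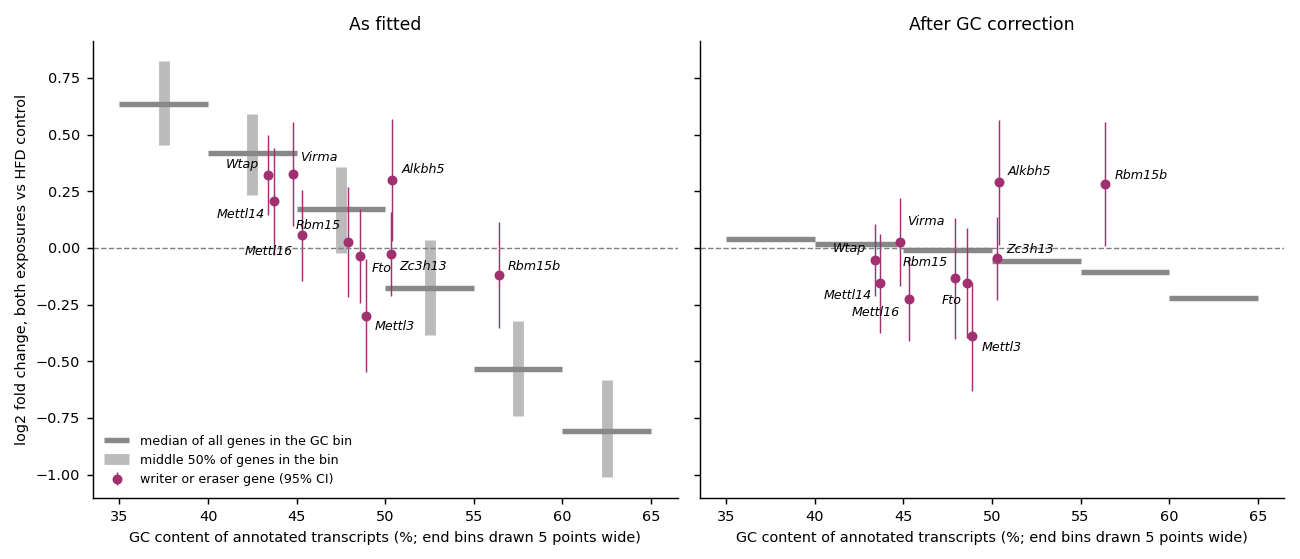
Log2 fold change with the combined exposure (y axis) against transcript GC content (x axis, %), as fitted (left) and after GC correction (right). Grey lines are medians of all genes of at least 1 CPM in each bin and points the 10 members with 95% intervals. Grey bars, on the left only, are the middle 50% of the genes in each bin. The bin medians fall from 0.63 to -0.81 as fitted and from 0.039 to -0.22 after the correction. As fitted, Wtap and Virma lie under the median of their bin (0.42).

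When a smooth trend over GC content was removed from each library, none of the 10 members passed in any of the 6 comparisons (0 to 4 members per comparison at an unadjusted p under 0.05). In the combined exposure against control, 4.3% of all genes still passed. The correction left part of the trend in place for genes of at least 1 CPM. Their corrected median log2FC was 0.039 under 40% GC, -0.11 between 55 and 60% and -0.22 from 60% up. Wtap went from 0.32 to -0.052 (interval -0.21 to 0.11, adjusted p = 0.759) and Virma from 0.33 to 0.027 (interval -0.17 to 0.22, adjusted p = 0.911). Over all alternatives their adjusted p ranged from 0.0005 to 0.942 and from 0.0114 to 0.986. At an unadjusted p under 0.05 there were 4 members and 3429 genes after the correction, and of these members Mettl3 and Alkbh5 had been under it before, while Mettl16 and Rbm15b had not. The values after the correction were Mettl3 at -0.39 (interval -0.63 to -0.15, adjusted p = 0.0550), Mettl16 at -0.23 (interval -0.41 to -0.042), Rbm15b at 0.28 in place of -0.12 (interval 0.007 to 0.55) and Alkbh5 at 0.29 (interval 0.010 to 0.57). Mettl3 had the lowest adjusted p of the members after the correction. With it and each mouse left out in turn its log2FC stayed between -0.45 and -0.35, and it passed in 1 of 10 fits, that without control replicate 3 (adjusted p = 0.0399). With the slope entered as a covariate in the fit, 0 members passed and the log2FC of Mettl3 was -0.21. Slope and group go together in these mice, with slopes of 0.085 to 0.423 in control and -0.543 to -0.121 with both exposures. This fit therefore has wide intervals (-0.66 to 0.24 for Mettl3). Neither this fit nor the GC correction can tell the GC trend of the libraries from an exposure effect that follows GC content.

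The combined exposure was next set against each single exposure. These comparisons share the combined mice with the one above. Against Aroclor alone, no member passed, where 0.412% of genes did, and 1 member and 3639 genes had an unadjusted p under 0.05. The member was Wtap, at 24.2, 22.6, 24.8, 23.9 and 24.7 CPM with Aroclor, all below the combined mice, as 6.76% of all genes did not overlap between these groups. The log2FC was 0.22 (interval 0.045 to 0.40, adjusted p = 0.133), and DESeq2 called it (adjusted p = 0.0333). After GC correction it was -0.00065 (interval -0.16 to 0.16). Against PCB 126 alone, 1 of 10 members and 16.7% of genes passed. Wtap had 26.5, 24.7, 21.1, 20.5 and 25.3 CPM with PCB 126, of which only replicate 1 reached the combined range, and its log2FC was 0.25 (interval 0.071 to 0.42, adjusted p = 0.0497). This call lies at the threshold: it was kept in 1 of 10 fits that left out a mouse and lost with the replicate block (0.25, adjusted p = 0.0569), and its adjusted p ranged from 0.0129 to 0.987 over the alternatives.

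After GC correction the comparison with PCB 126 alone gave 0 members and 0% of genes, while 4 members and 3102 genes had an unadjusted p under 0.05. Of these, 3 were catalytic or RNA-binding methyltransferase genes with lower values in the combined group: Mettl16 at -0.35 (interval -0.53 to -0.16, adjusted p = 0.0941), Mettl3 at -0.29 (adjusted p = 0.175) and Mettl14 at -0.27 (adjusted p = 0.173). The fourth was Rbm15b at 0.44 (interval 0.16 to 0.71, adjusted p = 0.119). Before the correction the same 4 genes were at -0.073, -0.15, 0.078 and 0.16.

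The interaction term asks whether both exposures together differ from the sum of the single ones on the log2 scale. No member and 0% of genes passed, with 0 members and 1846 genes at an unadjusted p under 0.05 and 0 members and 1 gene by DESeq2. For Wtap the term was 0.15 (interval -0.10 to 0.39), so its higher level with both exposures was not shown to exceed the sum of 0.10 with Aroclor and 0.075 with PCB 126. The term farthest from 0 was that of Rbm15b, 0.33 (interval -0.004 to 0.66, adjusted p = 0.424).

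The rest of the m6A pathway was tested from lists of 24 genes, again by the call of the whole table. With Aroclor alone or PCB 126 alone none of the 23 tested passed in edgeR, while 5 had an unadjusted p under 0.05 in each, and DESeq2 called 2 in each (Fmr1 and Mat2b with Aroclor, Ahcy and Mat1a with PCB 126, all higher). With the combined exposure 11 of the 23 passed, beside 32.8% of all genes. Of 6 other adenosine methylation genes 4 passed: Mettl4 (log2FC 0.75, adjusted p = 0.0420) and Mettl5 (0.35, adjusted p = 0.0174), the latter an enzyme of 18S ribosomal RNA, rose, while its cofactor Trmt112 (-0.90, adjusted p = 0.00589) and the cap-adjacent writer Pcif1 (-0.35, adjusted p = 0.0390) fell. Cbll1, which encodes a further subunit of the writer complex, was at 0.32 and did not pass.

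Among 14 reader genes, 13 were tested and 5 passed, a share near that of all genes (32.8%). Fmr1 (1.13), Ythdc2 (1.14), Ythdf3 (0.75) and the nuclear reader Ythdc1 (0.32) rose, and Prrc2a (-0.81) fell, with adjusted p from 0.00228 to 0.0206. Igf2bp1 had 6 counts in all and was not tested. Of the 4 genes that make and recycle the methyl donor S-adenosylmethionine, Mat2b (0.46, adjusted p = 0.00104) and Mat2a (0.52, adjusted p = 0.0128) rose. Mat2a, the transcript that METTL16 methylates, was 153 to 241 CPM with both exposures and 104 to 167 CPM in control, and these groups overlapped. The liver isoenzyme Mat1a (0.19) and Ahcy (0.023) did not pass. After GC correction, where 4.3% of all genes passed, 1 of the 23 tested genes did, the reader Hnrnpc (-0.32, adjusted p = 0.0321), which had been at 0.064, while Mat2a was at 0.28 and Mat2b at 0.20. Between the combined exposure and PCB 126 alone 5 of the 23 passed without GC correction, beside 16.7% of all genes. Ythdf3 was higher (0.49), and Pcif1 (-0.41), Trmt112 (-0.73), Prrc2a (-0.68) and Ahcy (-0.35) were lower, with adjusted p from 0.0187 to 0.0441. After GC correction, where 0% of all genes passed, these 5 had adjusted p from 0.219 to 0.729. Against Aroclor alone none of the 23 passed in edgeR, where 0.412% of all genes did. In that comparison 4 of the 23 had an unadjusted p under 0.05 and DESeq2 called 1.

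**Figure D5:**
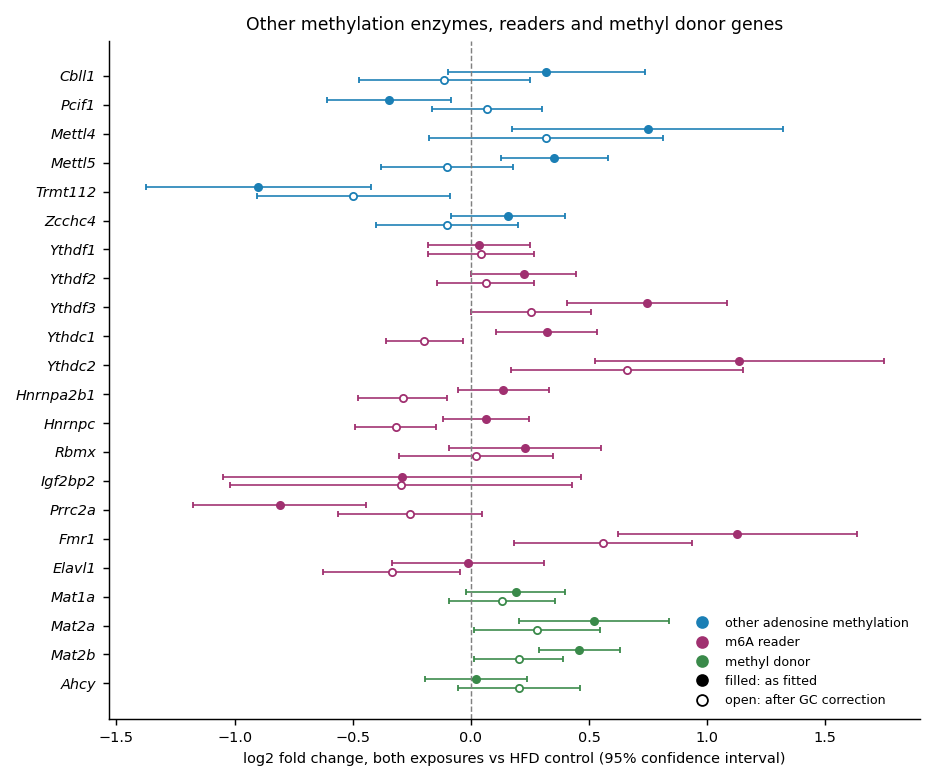
Log2 fold change with the combined exposure against HFD control (x axis, 95% intervals) for the other adenosine methylation enzymes, the readers and the methyl donor genes, as fitted (filled) and after GC correction (open). Fmr1 (1.13) and Ythdc2 (1.14) lie farthest to the right and Trmt112 (-0.90) farthest to the left, and most values move toward 0 with the correction. Igf2bp3, with 12 counts in all, is left out for its wide interval.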

How the data were processed

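Liver RNA-seq libraries of 20 mice in 4 exposure groups were analysed. The authors sequenced stranded libraries of polyadenylated RNA in 2 runs, aligned the reads with STAR 2.6 to GRCm38.p6, and deposited raw HTSeq 0.10.0 counts per Ensembl gene, without normalization. The annotation release is not given in the sources used here. Columns were matched to mice by the library name in the sample titles. The library names of HFD + PCB 126 replicates 2 and 3 carry the same replicate number, and the number in the title was used. No 2 libraries of a group were alike within counting error (40 pairs, chi-square at least 18.7 times its degrees of freedom).

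Genes with at least 10 counts in all (15522) were TMM-scaled and fitted in edgeR 4.0.16 (R 4.3.3) with a coefficient per group (16 residual degrees of freedom). Its quasi-likelihood test (two-sided) gave p-values, which were adjusted over all tested genes by the Benjamini-Hochberg method, with 0.05 as threshold, and 95% intervals use the standard error of the log2FC. For GC correction, each library's trend over transcript GC content (GENCODE M21, spline with 6 degrees of freedom) entered as an offset. Library slopes were compared by an exact permutation test. DESeq2 1.42.0, other size factors and filters, a fit to the compared groups, gene length, the replicate block and leaving out mice were alternatives. Only the edgeR fit without and with GC correction was run on simulated counts, for the combined exposure against control. The changes planted there were larger than those of the members, and the other fits were not simulated.

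All 10 members are named, and other pathway genes and markers where they passed in a comparison with control or bear on one. Any other gene was chosen after its values were seen. The members and the lists were chosen with earlier results of these data known. Of 21780 genes, 21754 have a GC content.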

Additional observations from a re-analysis of the deposited data

Results flagged for a closer look

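Rbm15b in HFD + Aroclor replicate 2 stood at 10.9 CPM, below the other 4 mice of its group (12.7 to 13.4 CPM), and the gap was wide for a group of 5 by Dixon's test. Chance marks about 5% of groups, and this was 1 mark in 40 groups of 5 mice (10 members in 4 groups).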

How the results depend on the processing

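The higher Wtap and Virma with the combined exposure kept their direction and passed under other size factors, other filters, the compared groups alone, the replicate block and DESeq2, and did not pass under any fit that took up GC content. The count of 2 members fell to 0 with GC correction, with GC correction and the replicate block, with GC and length, with the slope covariate and with GC correction without control replicates 1 and 2, while the calls over all genes went from 5089 to 668 with GC correction. DESeq2 called more genes in all than edgeR with Aroclor (135 against 0), with PCB 126 (320 against 18) and with both against Aroclor alone (1343 against 64). Against PCB 126 alone, the count of 1 fell to 0 under the 4 GC fits on all mice, with no filter, in the compared groups alone and with the replicate block. DESeq2 called 1 member against Aroclor alone, and 1 was called with PCB 126 without control replicates 1 and 2. With a mouse left out, 1 to 3 members passed with both exposures, 0 to 1 against PCB 126 alone, 0 to 1 after GC correction with both exposures, and the slope difference stayed between -0.62 and -0.52. The 3 members were called without control replicate 5 (Wtap, Virma and Alkbh5). The cause of these changes was not tested beyond the fits named.

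Signs turned in members near 0 and also in some of the members farthest from it. Without GC correction Wtap was at 0.32, Virma at 0.33, Alkbh5 at 0.30 and Mettl14 at 0.21 with both exposures, and Wtap at 0.25 against PCB 126 alone. The log2FC values after each turn of sign were these. GC correction gave with Aroclor Mettl16 -0.084, Wtap -0.051 and Rbm15 -0.016, with both Mettl14 -0.16, Mettl16 -0.23, Wtap -0.052, Rbm15 -0.14 and Rbm15b 0.28, and for Wtap against PCB 126 alone -0.085. GC correction with the replicate block gave with Aroclor Mettl16 -0.084, Wtap -0.050 and Rbm15 -0.0051, with both Mettl14 -0.16, Mettl16 -0.23, Wtap -0.051, Rbm15 -0.13 and Rbm15b 0.28, and for Wtap against PCB 126 alone -0.085. GC and length gave with Aroclor Mettl16 -0.10, Wtap -0.065 and Rbm15 -0.039, with both Mettl14 -0.19, Mettl16 -0.31, Wtap -0.064, Virma -0.0039, Rbm15 -0.18 and Rbm15b 0.235, and for Wtap against PCB 126 alone -0.091. The slope covariate gave with Aroclor Mettl16 -0.12, Wtap -0.013, Rbm15 -0.044 and Alkbh5 -0.016, with PCB 126 Alkbh5 -0.037, and with both Mettl14 -0.032, Mettl16 -0.275, Virma -0.10, Rbm15 -0.17, Zc3h13 0.074 and Alkbh5 -0.16. Leaving out control replicates 1 and 2, chosen after seeing the data, gave with Aroclor Mettl16 -0.12, Rbm15 -0.16 and Alkbh5 -0.048, with PCB 126 Alkbh5 -0.14, and with both Mettl16 -0.074, Rbm15 -0.16 and Zc3h13 0.0050. With GC correction as well these were with Aroclor Mettl16 -0.16, Rbm15 -0.18 and Alkbh5 -0.022, with PCB 126 Alkbh5 -0.076, and with both Mettl14 -0.11, Mettl16 -0.30, Virma -0.0265, Rbm15 -0.30, Rbm15b 0.058 and Zc3h13 0.0084. Mettl16 with Aroclor was -0.011 with RLE size factors, -0.0285 with upper-quartile factors, -0.0077 with no filter, -0.00025 with the FPKM filter and -0.0074 by DESeq2. Upper-quartile factors also gave Rbm15 -0.0043 with Aroclor, and Zc3h13 with PCB 126 was -0.0345 with them, -0.0185 with the FPKM filter and -0.0027 with filterByExpr.

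With a mouse left out, signs turned within -0.066 to 0.061 for Mettl14, -0.041 to 0.083 for Mettl16 and -0.042 to 0.10 for Rbm15 with Aroclor. With PCB 126 the ranges were -0.12 to 0.0265 for Rbm15, -0.049 to 0.039 for Zc3h13, -0.017 to 0.12 for Fto and -0.013 to 0.155 for Alkbh5, and with both -0.0094 to 0.12 for Mettl16, -0.053 to 0.094 for Rbm15 and -0.096 to 0.011 for Zc3h13.

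The replicate numbers come from the titles and name different mice. Over 30 pairs of same-numbered mice the correlation of deviations ran from -0.26 to 0.744, with 13 over 0.1. The median was 0.0502, beside -0.0124 for pairs with different numbers. The deviations also hold the GC trend of each library, and whether a number marks anything shared by the mice was not tested. With the replicate block Wtap (0.32) and Virma (0.33) stayed past the threshold with both exposures, and Wtap against PCB 126 alone did not (0.25, adjusted p = 0.0569).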

Other observations

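The genes whose log2 CPM followed Mettl3 most closely over the 20 libraries, of 11341 genes of at least 1 CPM, were Zcchc8 (Pearson r of 0.86, Spearman rho of 0.866), Mapkapk3 (0.838 and 0.753) and Zfp330 (0.834 and 0.806). For Fto they were Akap1 (0.821 and 0.786), AU040320 (0.819 and 0.812) and Eif4g1 (0.811 and 0.823). These are the highest values of many, the libraries share the GC trend described above, and no test was made. The 3 genes closest to Fto have transcripts of 53.5 to 54.6% GC, while Fto has 48.6%.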
